A study of Mus musculus with 6 samples.

Results

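The proliferation genes described here were 45 genes of the cell cycle, taken as a list of names: cyclins, replication licensing and nucleotide synthesis genes, mitotic kinases, centromere, checkpoint and spindle genes, and the marks Mki67 and Top2a. All 45 were found among the 28909 named genes of a mouse 1-colour Agilent array, on 60 of its 55681 probes, and each gene was read from its brightest probe. Total RNA came from cardiac muscle of male C57BL/6 mice. In the first group, 3 mice were suspended by the tail for 28 days, a way to unload the hindlimbs and shift body fluids that stands in for weightlessness. The second group, called sham, was 3 mice that were not suspended and were otherwise kept alike. According to the labels, suspension began at 10 weeks of age, and the animals are also listed as 11 weeks old. No transgene, deletion or drug was part of either group, and each array held the RNA of 1 heart.

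A cell that divides passes through the phases G1, S, G2 and M. In G1, D and E cyclins activate kinases that inactivate the RB family and so free E2F factors to switch on genes for DNA replication. Mitotic genes follow later in the cycle and are repressed in resting cells by the DREAM complex. Adult mouse cardiomyocytes rarely divide, so RNA of these genes in a heart can also come from endothelial cells, fibroblasts, blood cells and other cells between the myocytes. In whole tissue, fewer cells of a type and less RNA per cell cannot be told apart.

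Tail-suspended hearts had lower levels of the D and E cyclins Ccnd1, Ccnd2 and Ccne1, while Ccnd3 did not change by the test. The Ccnd2 call was close to the threshold and was lost under 12 of 18 alternative analyses, the Ccne1 call under 8. Levels were also lower for the replication genes Mcm2 and Rrm2 and for a set of genes that act in mitosis. At an adjusted p under 0.05, 14 members were lower and 1, Mcm7, was higher, while 20 showed no call and 10 were too dim to test. The measured means fell 2-fold or more for 9 of the 14: Prc1, Ccna2, Cenpa, Cenpe, Ube2c, Rrm2, Ccnb2, Ccnd1 and Nusap1. Nusap1 is at this limit, since only 1 of its tail-suspension arrays was well above background: with the other arrays raised to the lowest measurable signal its fold was 1.92. Replication genes were divided: Mcm2 and Rrm2 fell, Mcm7 rose, and Pcna, Tk1, Mcm6 and Cdt1 stayed within 0.1 log2 units of sham. Mki67, the best known proliferation mark, had a mean 56.2% of sham but did not pass the test.

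These counts have to be read against a heart in which many other genes moved. Members were also chosen with earlier results of these data known, so an excess over all genes is a description, not a test. Of 17135 genes tested, 10.6% were called lower and 10.5% higher. Among the members tested, 40% were lower and 2.86% higher. Since 5 members (Ccna2, Prc1, Tpx2, Nusap1 and Foxm1) entered the test only because the sham arrays measured them, the count was repeated over genes well above background on all 6 arrays. There, 10 of 30 members, 33.3%, were lower against 10.3% of 16294 genes, and 1 of 30, 3.33%, was higher against 10%. The median log2 difference of the 30 was -0.25, compared with -0.016 over all such genes, and it was negative for 23 of the 30 against 51.9% of all genes. The groups were apart, with tail-suspension below, for 11 of the 30 members, 36.7%, and for 24.2% of all genes. They were apart with tail-suspension above for 3 of the 30 and for 21.8% of all genes. For a single gene, an exact permutation test of 3 against 3 arrays cannot go below p = 0.1, so calls rest on limma's test with Benjamini-Hochberg adjustment over all 28030 tested probes.

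Between 50.9% and 53.4% of probes were well above background on an array, and no spot was saturated. Labelled as cardiac muscle, the samples had all 8 cardiomyocyte markers well above background on all 6 arrays. All arrays came from 1 slide, with the 3 sham arrays and tail-suspension 1 in one row and tail-suspension 2 and 3 in the other. Sham 3 stood apart on many members: it was the highest sham array for 21 of the 30 members, 70%, against 32.6% of all genes, and for 9 of 12 members of the mitotic roles and proliferation marks. Levels below are log2 intensities relative to the 75th percentile of the same array, given in the order of replicates 1, 2 and 3, and differences are log2 values of tail-suspension minus sham.

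Promoter letters differed between the mitotic and the replication genes of the list, a property that does not depend on the arrays. RefSeq windows on GRCm38.p6, 250 bases before to 50 after the start of the gene, were at hand for 34 of the 45 members. The CHR element, through which DREAM and related complexes act on genes of G2 and M, was searched as TTTGAA on both strands. It occurred in 41.2% of members and in 20.2% of 27025 genes. Within the list, 13 of 19 genes of the mitotic roles and proliferation marks held it, and 1 of the 15 others, Mcm2. Letters of an E2F site, searched as TTTCCCGC, TTTCGCGC, TTTGCCGC or TTTGGCGC on both strands, showed the opposite split: none of those 19 genes held them, 6 of the 15 others did, and so did 2.60% of all genes. CCAAT, searched on both strands, was present in 73.5% of members and 41.1% of all genes. Matches of different searches may overlap by a base or more. Short letters occur often by base composition alone, and a match is a description, not a site in use.

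The 5 stretches below stand for these kinds. Ube2c (chr2:164769809-164769928, plus strand) and Prc1 (chr7:80294356-80294475, plus strand) are mitotic genes that fell. Cdc20 (chr4:118437344-118437463, minus strand) is a mitotic gene with the same letters and no call. Mcm6 (chr1:128359706-128359825, minus strand) and Mcm7 (chr5:138171884-138172063, minus strand) are replication genes, of which only Mcm7 rose. Each ends just before the start of its gene and is printed on the strand of the gene. Capitals mark the matches on either strand to the letters of CHR, CCAAT and E2F searched above.
Ube2c: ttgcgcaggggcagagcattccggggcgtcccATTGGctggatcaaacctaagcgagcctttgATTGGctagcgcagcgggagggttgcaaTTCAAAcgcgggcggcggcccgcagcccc
Prc1: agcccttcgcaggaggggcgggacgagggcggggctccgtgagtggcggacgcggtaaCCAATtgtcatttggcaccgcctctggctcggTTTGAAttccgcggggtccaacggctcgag
Cdc20: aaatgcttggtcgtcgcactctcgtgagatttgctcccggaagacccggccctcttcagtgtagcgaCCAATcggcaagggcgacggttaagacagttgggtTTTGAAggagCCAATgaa
Mcm6: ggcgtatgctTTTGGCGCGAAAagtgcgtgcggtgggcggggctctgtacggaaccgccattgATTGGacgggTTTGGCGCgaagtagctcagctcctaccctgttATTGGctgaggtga
Mcm7: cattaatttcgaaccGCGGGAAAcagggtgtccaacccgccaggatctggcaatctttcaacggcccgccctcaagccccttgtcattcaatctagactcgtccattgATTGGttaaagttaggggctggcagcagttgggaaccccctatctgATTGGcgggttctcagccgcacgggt
The CHR letters began 29 bases before the start in Ube2c, 30 in Prc1 and 18 in Cdc20, each with CCAAT letters further upstream. Mcm6 and Mcm7 held E2F and CCAAT letters and no CHR in these stretches. The Mcm7 stretch is longer than the others, 180 against 120 bases, and its E2F letters began 165 bases before the start. The window of a second Mcm7 start, not printed, held CCAAT letters and neither E2F nor CHR letters. Of the lower members with a window, 5 of 9 held CHR, as did 5 of 17 members with no call.

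D cyclins bind CDK4 and CDK6 and are the first cyclins to respond to growth signals. Of the 3, Ccnd1 and Ccnd2 fell and Ccnd3 did not change by the test. Ccnd1 measured 3.40, 3.59 and 3.82 in sham hearts and 2.95, 2.16 and 2.48 after tail-suspension. The highest tail-suspension array, replicate 1, was below the lowest sham array, and the difference was -1.08 (SE 0.22, adjusted p = 0.0204). For Ccnd2 the levels were 3.58, 3.99 and 3.66 in sham and 3.37, 2.91 and 3.18 in tail-suspension, again with no overlap, a smaller difference of -0.59 (SE 0.16, adjusted p = 0.0445). Ccnd3 ran at 4.35, 4.37 and 4.22 against 4.33, 4.13 and 4.47. Its groups overlapped, and the difference was -0.0038 (SE 0.11, adjusted p = 0.984). The Ccnd1 probe lies on chromosome 7, 152116202 to 152116261, on mm9, the build that the array files give for all probes.

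Ccne1, the E cyclin that partners CDK2 at entry into S phase, also fell. Its sham levels of -1.03, -1.24 and -1.14 were all above the tail-suspension levels of -1.78, -1.90 and -1.49 (difference -0.59, SE 0.13, adjusted p = 0.0257). Ccne2, the other E cyclin, was well above background on only 1 tail-suspension array and could not be tested.

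Of the 2 transcription factors, Foxm1, an activator of mitotic genes, was lower and E2f1, an activator of S-phase genes, had no call. Foxm1 gave -3.80, -3.51 and -3.26 in sham and -4.39, -4.25 and -4.51 in tail-suspension, where 1 array was well above background (difference -0.86, SE 0.15, adjusted p = 0.0151). E2f1 was measured on all 6 arrays, at -3.10, -2.95 and -2.86 against -3.46, -3.30 and -3.03. Tail-suspension 3 reached into the range of sham, and the difference of -0.29 (SE 0.13) did not pass (adjusted p = 0.156).

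The MCM2-7 proteins form the ring-shaped helicase that is loaded on origins in G1, and its subunits moved in different directions. Mcm2 fell from -0.98, -0.87 and -1.10 to -1.50, -1.68 and -1.61, with a gap between the groups and little spread inside either (difference -0.62, SE 0.10, adjusted p = 0.0113). Mcm7 rose from 1.14, 1.06 and 1.53 to 1.83, 1.90 and 1.91 (difference 0.63, SE 0.14, adjusted p = 0.0247). All tail-suspension arrays exceeded sham 3, the highest sham array for this gene. Mcm4 was also above sham on every array, at 1.59, 1.61 and 1.60 against 1.24, 1.25 and 1.44, yet missed the threshold (difference 0.29, SE 0.09, adjusted p = 0.0676). Mcm3, Mcm5 and Mcm6 had differences of -0.23, -0.21 and -0.086 and overlapping groups. Cdt1, the loader of the helicase, and Gmnn, the protein that blocks Cdt1, differed by 0.056 and 0.031 with overlap. Cdc6, the other loading factor, was not well above background on any array.

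Nucleotide synthesis was likewise not of 1 kind. Rrm2, the small subunit of ribonucleotide reductase whose supply follows S phase, fell from -0.66, -0.58 and -0.46 in sham to -1.89, -1.62 and -1.86 in tail-suspension. This was 42.7% of the sham level, with a wide gap between the groups (difference -1.23, SE 0.11, adjusted p = 0.00245). Rrm1, the large subunit, lay above sham on all 3 arrays, at 0.90, 0.84 and 0.95 against 0.66, 0.64 and 0.72, but did not pass (difference 0.22, SE 0.08, adjusted p = 0.0957). Pcna, the sliding clamp of the replication fork, was steady at 2.91, 2.96 and 2.86 in sham and 2.85, 2.84 and 2.89 in tail-suspension (difference -0.051, SE 0.08, adjusted p = 0.676). Tk1 and Tyms, which supply thymidine nucleotides, differed by -0.016 and 0.16 with overlapping groups. The mean of this role lay below sham through Rrm2 alone: its other 4 genes had a mean difference of 0.080. Over the licensing, nucleotide and fork roles together, 13 of 14 members were tested, of which 2 were lower, 1 was higher and 10 had no call. The lower and higher shares were 15.4% and 7.69%, against 10.6% and 10.5% of all tested genes.

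**Figure D1:**
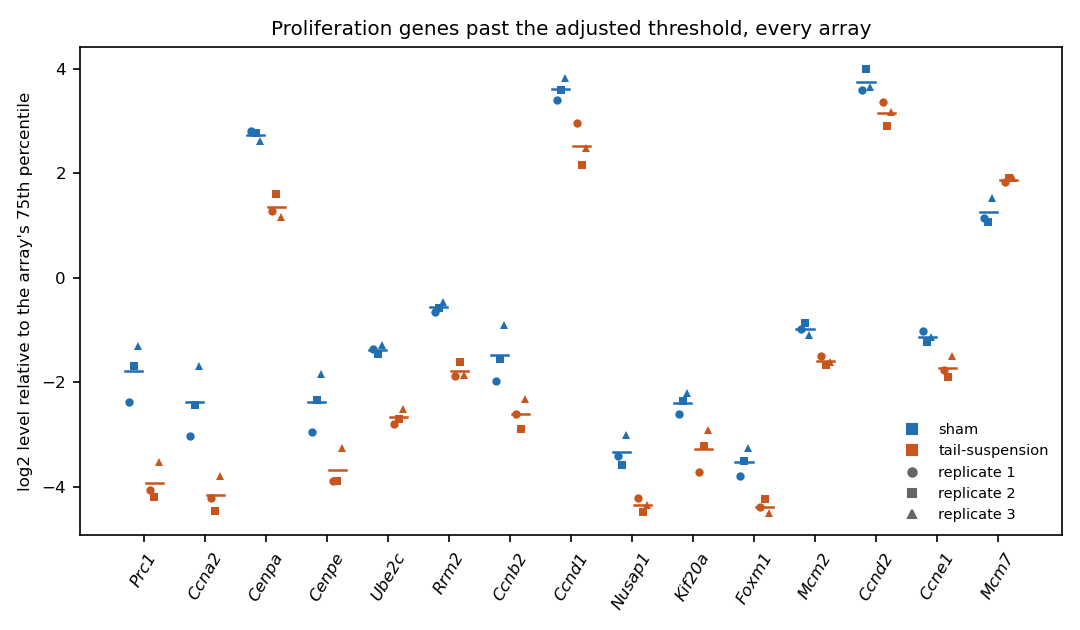
Each point is 1 array: the log2 level of a gene relative to the 75th percentile of its array, for the 15 proliferation genes with an adjusted p under 0.05, with group means as lines (sham blue, tail-suspension orange, 3 arrays each) and marker shapes for the replicate number. In each of the 15 genes the groups do not overlap, 14 times with tail-suspension lower. Since the genes were picked by that adjusted p, the gaps are no further test. Sham replicate 3 is the highest sham array for 10 of the 14 lower genes. Levels of different genes come from different probes and cannot be compared.

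The 4 mitotic roles, which cover entry into mitosis, centromeres, the checkpoint and the spindle, held 22 members. Of the 15 tested, 8 were lower, 53.3% against 10.6% of all tested genes, and none was higher. Among these 8, Ccna2, Prc1 and Nusap1 entered the test only through the sham arrays. Of the 11 measured on all 6 arrays, 5 were lower, 45.5% against 10.3% of all such genes. Their median difference was -0.87. The dot plot of the called genes shows that the mitotic genes also varied within a group: for Prc1, Ccna2, Ccnb2 and Cenpe, sham 1 was the lowest and sham 3 the highest sham array, while the sham values of Cenpa and Ube2c lay close together.

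Entry into mitosis is driven by cyclins A and B with CDK1. Ccna2 was measured at -3.04, -2.43 and -1.69 in sham and at -4.22, -4.47 and -3.80 in tail-suspension, where 2 of 3 arrays were well above background. The groups were separate (difference -1.78, SE 0.35, adjusted p = 0.0191). Ccnb2 fell from -1.99, -1.56 and -0.91 to -2.62, -2.90 and -2.33 (difference -1.13, SE 0.28, adjusted p = 0.0368). Its sister Ccnb1 was dimmer and could not be tested, at -5.32, -4.09 and -3.82 in sham, where 2 arrays were well above background, and -6.73, -6.35 and -5.18 in tail-suspension, where none was. With the tail-suspension arrays raised to the lowest measurable signal, Ccnb1 was 1.02-fold below the sham mean. The dim sham array entered that mean at its own signal, so the value is not a firm bound, and it carries no test. Aurka, a kinase of the spindle poles, lay below sham on every array but missed the threshold (difference -0.60, SE 0.23, adjusted p = 0.107). Plk1, another mitotic kinase, differed by -0.11 (adjusted p = 0.794), and Cdc25c, the phosphatase that switches CDK1 on, was not measured above background on any array.

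Centromere genes contained both large falls and none. Cenpa, the histone H3 variant that marks centromeres, went from 2.81, 2.77 and 2.62 to 1.27, 1.61 and 1.17. Its 3 sham values lay within 0.2 log2 units and more than 1 log2 unit above tail-suspension (difference -1.39, SE 0.14, adjusted p = 0.00283). Cenpe, a kinetochore motor, fell from -2.96, -2.34 and -1.85 to -3.89, -3.90 and -3.27 (difference -1.30, SE 0.31, adjusted p = 0.0315). Cenpf, another kinetochore protein, gave overlapping groups and a difference of -0.0037 (SE 0.27, adjusted p = 0.993). Birc5, the survivin subunit of the chromosomal passenger complex, had a mean of 54.5% of sham with wide spread in both groups, and tail-suspension 3 lay inside the sham range (difference -0.87, SE 0.37, adjusted p = 0.135). Aurkb, the kinase of that complex, was not well above background on any array.

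The anaphase-promoting complex (APC) ends mitosis by marking cyclins and securin for degradation. Ube2c, its ubiquitin-conjugating enzyme, had levels of -1.37, -1.46 and -1.29 in sham and -2.80, -2.71 and -2.51 in tail-suspension. Both groups were tight, and the gap gave the lowest adjusted p of any member (difference -1.30, SE 0.11, adjusted p = 0.00223). A second Ube2c probe differed by -1.43 (adjusted p = 0.00598). The brighter probe lies on chromosome 2, 164598016 to 164598075 (mm9). Cdc20, the activator of the complex, read -1.28, -1.26 and -0.79 in sham and -1.67, -1.26 and -1.19 in tail-suspension. These groups overlapped, and the difference was -0.26 (SE 0.18, adjusted p = 0.336). Mad2l1, the checkpoint protein that holds Cdc20 back, differed by 0.039 on its brightest probe and by -0.21 and -0.42 on its other probes, none of them called. Bub1 was not well above background on any array, and Bub1b was so on 2 sham arrays and no tail-suspension array. Bub1b was 1.23-fold lower by the same reckoning as Ccnb1, again with a dim sham array at its own signal, and was not tested.

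Spindle and cytokinesis genes gave the biggest difference of the list. Prc1, which bundles the microtubules of the central spindle, was at -2.38, -1.70 and -1.31 in sham and at -4.07, -4.20 and -3.54 in tail-suspension, where 2 of 3 arrays were well above background. The mean was 22.7% of sham and more than 1 log2 unit separated the groups (difference -2.14, SE 0.30, adjusted p = 0.00754). Kif20a, a kinesin of cytokinesis, fell from -2.61, -2.36 and -2.22 to -3.72, -3.23 and -2.93 (difference -0.89, SE 0.21, adjusted p = 0.0325). Nusap1, a protein that stabilises spindle microtubules, fell from -3.41, -3.58 and -3.02 to -4.22, -4.49 and -4.36, and 1 tail-suspension array was well above background (difference -1.01, SE 0.16, adjusted p = 0.0105). Tpx2, the activator of Aurora A on the spindle, was well above background on 1 tail-suspension array and had no call (difference -1.48, SE 0.56, adjusted p = 0.104). Raising its dim arrays to the lowest measurable signal left a difference of -0.53. Kif11 was dim on all arrays, and Kif23 was measured on 1 sham array only.

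**Figure D2:**
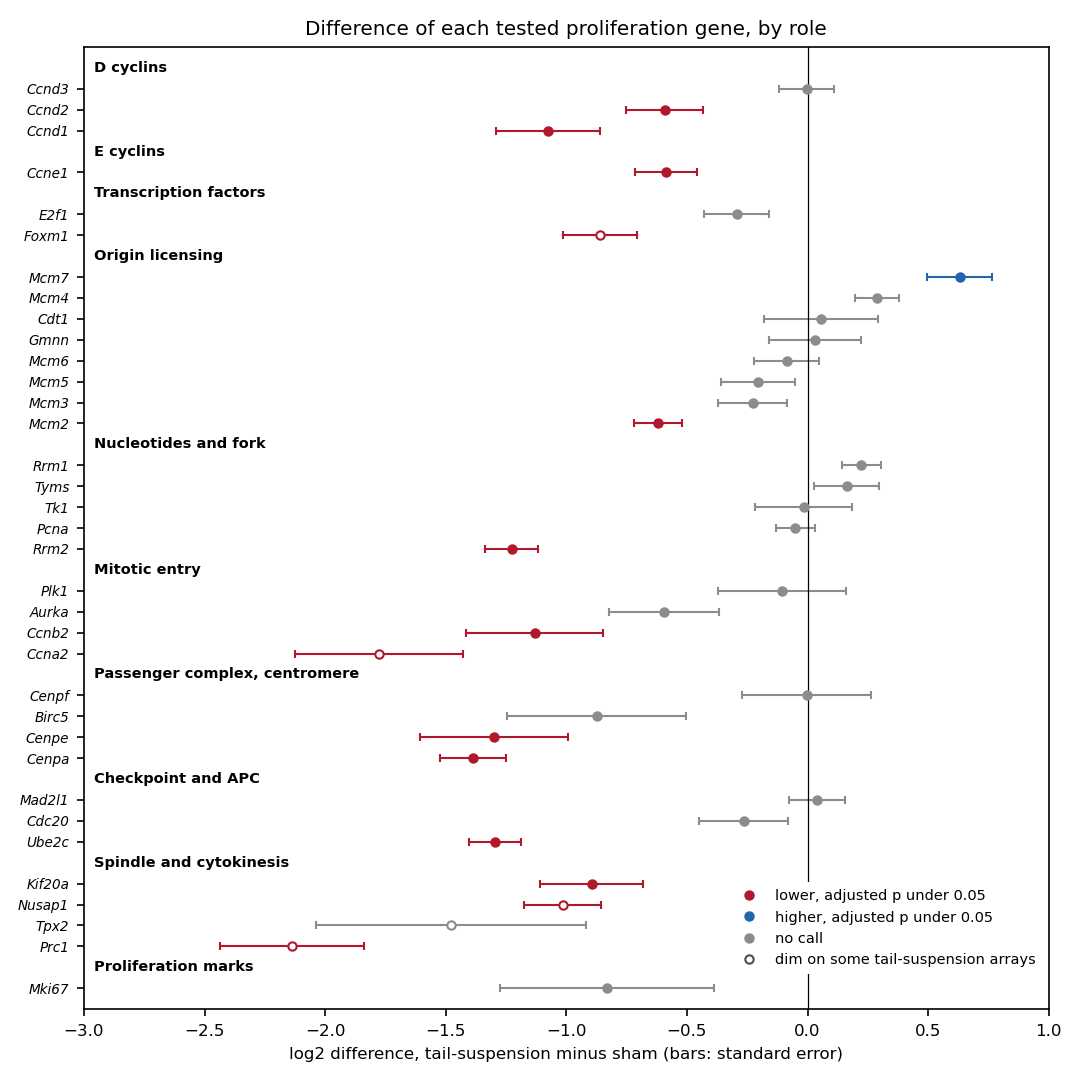
Points are log2 differences (tail-suspension minus sham, 3 arrays each) of the 35 tested proliferation genes and bars are limma standard errors, grouped by role; red marks lower and blue higher at an adjusted p under 0.05, and open points are genes not well above background on every tail-suspension array. The mitotic roles lie mostly to the left of 0, down to -2.14 for Prc1, while the origin licensing genes range from -0.62 (Mcm2) to 0.63 (Mcm7).

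Mki67 and Top2a, the usual marks of cycling cells, did not pass. Mki67 was at -1.42, -0.91 and -0.18 in sham and at -2.44, -1.65 and -0.92 in tail-suspension. Tail-suspension 3 was level with sham 2, and each group spanned more than 1 log2 unit (difference -0.83, SE 0.44, adjusted p = 0.217). A second probe differed by -0.86 (adjusted p = 0.237). Top2a, the topoisomerase that separates sister chromatids, was well above background on sham 3 alone, at -3.61. Its other sham values were -6.28 and -4.44, its tail-suspension values were -6.63, -6.26 and -6.49, and it was not tested.

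**Figure D3:**
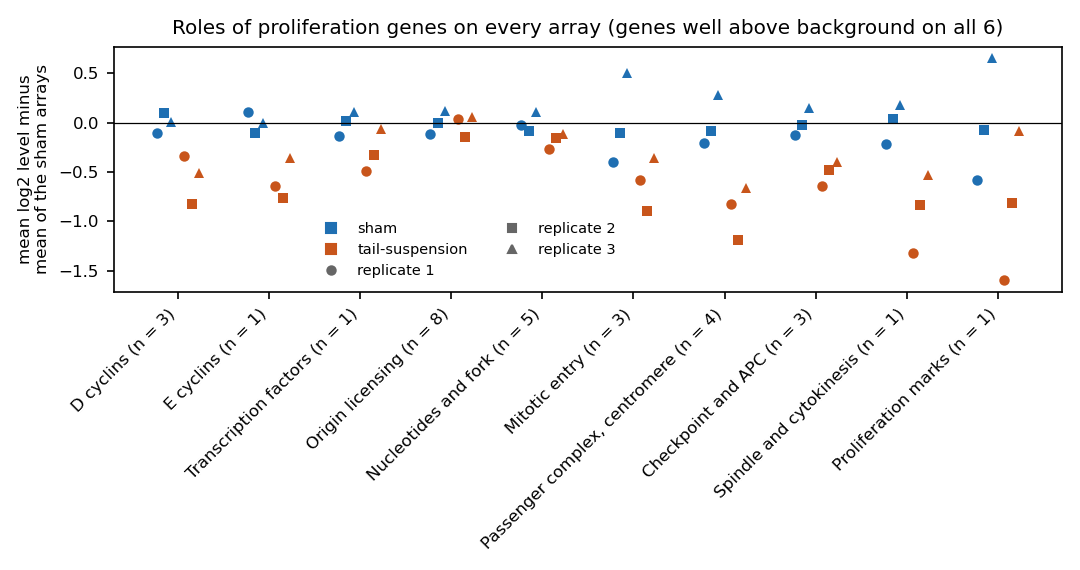
For each role, a point gives the mean log2 level of its genes on 1 array (only genes well above background on all 6 arrays, n below each role), minus the mean of the 3 sham arrays; colours are groups and shapes are replicate numbers. Tail-suspension lies below all sham arrays for the D and E cyclins and the nucleotide, centromere, checkpoint and spindle roles. The nucleotide role does so through Rrm2 alone, and the E cyclin and spindle roles are 1 gene each. In the checkpoint role only Ube2c was called, while Mad2l1 and Cdc20 differed by 0.039 and -0.26 with overlapping groups. Origin licensing, transcription factors, mitotic entry and proliferation marks overlap. Sham 3 is the highest sham array in every role but the D and E cyclins.

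Other genes of the cell cycle, 137 in 5 lists, put the members in context. Of 60 further mitosis genes, 36 could be tested, none was higher and 7 were lower: Cdca8, a passenger complex subunit, by -1.12 (adjusted p = 0.0232), Spc25 and Kif22 by -0.82 and -0.69, Cep55, a cytokinesis protein, by -0.68, and the sham-only measured Cdca5, Cenpk and Cenpn. These last entered the test only through the sham arrays. Their adjusted p of 0.00286, 0.0233 and 0.0209 by limma rest on tail-suspension signals that were not well above background. As bounds, which carry no test, they were at least 1.41-fold, 1.66-fold and 1.22-fold lower. On genes measured by all 6 arrays the lower share was 13.8%, near the 10.3% of all genes. Of 36 further replication genes, 33 were tested, with 5 higher, Pold1, the catalytic subunit of polymerase delta, by 0.73 (adjusted p = 0.00678), the clamp loader subunits Rfc1 and Rfc2 by 0.56 and 0.31, the ligase Lig1 by 0.34 and Gins3 by 0.33, and 3 lower, Pola1, Rpa3 and Dut, by -0.81, -0.70 and -0.61. Measured on all 6 arrays, these were 15.2% and 9.09%, near the shares of all genes. Among 14 CDKs and their partners, 10 were tested, none was higher and 4 were lower, 40% against 10.6% of all tested genes. The lower ones were Cks1b, Ccng1, Ccnh and Cdk7, by -0.75, -0.55, -0.55 and -0.43. Cdk1 itself was not well above background on any array, and Cdk2 and Cdk4 differed by -0.055 and -0.19 with no call.

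Regulators upstream moved in both directions. Of 19 genes of the RB, E2F, DREAM and MYC families, 3 were higher and 5 lower. These were 15.8% and 26.3%, against 10.5% and 10.6% of all tested genes. Myc rose from -2.92, -2.80 and -2.91 to -0.88, -1.72 and -1.23 (difference 1.60, SE 0.21, adjusted p = 0.00594), whereas Mycn fell from -0.71, -0.67 and -0.30 to -2.97, -2.10 and -3.13 (difference -2.17, SE 0.28, adjusted p = 0.00591). Rbl2, the RB-family member of DREAM in resting cells, rose by 0.70 (adjusted p = 0.0200) and Tfdp2, a partner of E2F proteins, by 1.15 (adjusted p = 0.00874). E2f2, E2f6, E2f3 and Tfdp1 differed by -1.02, -0.50, -0.46 and -0.40, all called lower. Among 8 CDK inhibitors, 7 were tested. Cdkn1a, which blocks cyclin-CDK2 and is a well known target of p53, rose most, from 0.51, 1.52 and 1.09 to 3.54, 3.38 and 4.06 (difference 2.62, SE 0.29, adjusted p = 0.00369). Every tail-suspension array was at least 1 log2 unit above every sham array. Cdkn2c and Cdkn3 rose by 0.66 and 0.87 (adjusted p = 0.0240 and 0.0327), though Cdkn3 was well above background on only 1 sham array. Cdkn1c fell by 0.55 on the log2 scale (adjusted p = 0.0276). Cdkn1b, Cdkn2d and Cdkn2b differed by 0.34, 0.30 and -0.32 with no call.

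**Figure D4:**
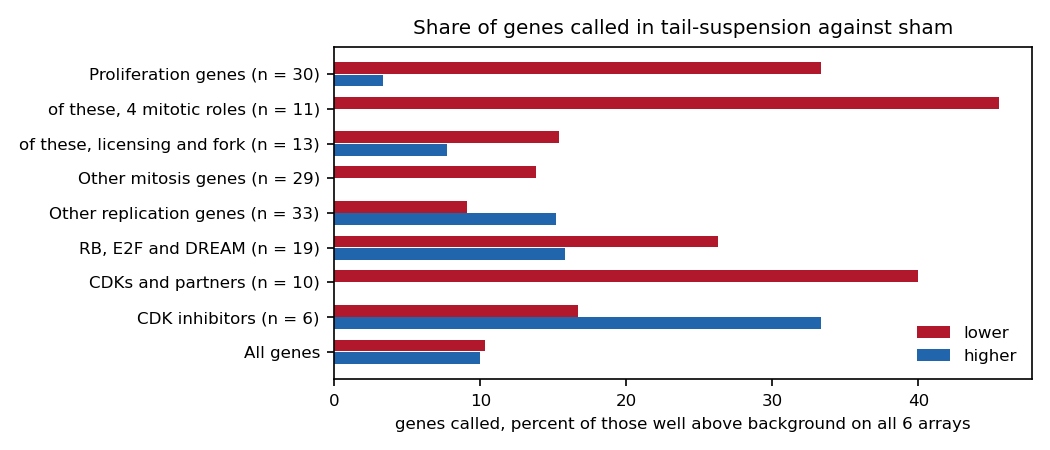
Bars give the percent of genes called lower (red) and higher (blue) in tail-suspension against sham, of the genes of each list well above background on all 6 arrays (n beside each name; all genes, 16294). Proliferation genes were called lower in 33.3% and their 4 mitotic roles in 45.5%, against 10.3% of all genes. The lists were chosen with earlier results of these data known, so the shares are no independent test. CDK inhibitors were called higher in 33.3% of 6 genes, against 10% of all genes.

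Markers of cell types that could carry these RNAs moved as well. Of 8 endothelial markers, 4 were lower (Kdr, Tie1, Egfl7 and Emcn, by -0.55, -0.44, -0.31 and -0.50) and Vwf was higher, and their summed level was 169 to 181 in sham and 151 to 166 in tail-suspension. In the fibroblast list, Col3a1 of 8 was called (difference -1.88, adjusted p = 0.0174), 6 of 8 differences were negative with a median of -0.64, and Col1a1, Col1a2 and Lum were also below sham on every array. The sums overlapped, at 281 to 298 and 277 to 351, but Dcn, which lay above sham, made up 70.1% to 89.4% of them. Col3a1 ran at 3.57, 3.92 and 4.55 in sham and at 1.97, 1.63 and 2.79 in tail-suspension. Of the macrophage list, 7 of 8 genes were tested and Cx3cr1 alone was called (difference -2.44, adjusted p = 0.00154). It was also the only 1 of the 7 with a negative difference. The median of the 7 was 0.61, and C1qa lay above sham on every array. Macrophage sums were 31.1 to 41.6 and 34.3 to 53.0. Mural markers had 1 of 6 called, Kcnj8 by -0.56, and sums of 48.5 to 62.5 and 52.8 to 72.0. Cardiomyocyte markers summed to 4295 to 4620 in sham and 4022 to 4097 in tail-suspension, with 1 of 8, Actc1, called lower.

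Blood cell markers differed as well. Among lymphocyte markers, 5 of 8 were tested and Cd79a, of B cells, was lower (difference -0.87, adjusted p = 0.0193), the sums being 2.78 to 3.40 and 2.47 to 2.99. Neutrophil markers were found for 7 of 8 names, and S100a8 and S100a9 were higher, 2 of the 4 measured on all 6 arrays. Retnlg and Ltf were called higher too, but no sham array measured them, and they entered the test only through tail-suspension. The sums were 145 to 172 in sham and 208 to 239 in tail-suspension, of which Csf3r, with no call, made up 78.2% to 99.6%. Mpo, of granulocyte precursors, was called higher on the same footing as Retnlg and Ltf, whereas Elane had no call and Prtn3 was not well above background on any array. The erythroid sums were 430 to 696 and 107 to 345, Hba-a1 was called lower, and Klf1, a factor of red cell precursors, was not well above background on any array. The part of any of these cells in the lower proliferation genes was not tested.

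Calls differed in how firmly they stood. Cenpa, Rrm2, Ube2c, Mcm2, Prc1 and Nusap1 kept an adjusted p under 0.05 with any 1 array left out. Ccnd2 lost its call under the most alternatives, 12 of 18, among them every fit with 1 array left out. Ccna2, Ccnb2, Ccnd1, Ccnd2, Ccne1, Cenpe, Foxm1, Kif20a and Mcm7 lost the call without sham 2 (adjusted p 0.0602 to 0.131). Leaving out another array ended fewer of these calls: 4 without sham 1 (0.0599 to 0.0834), 6 without sham 3 (0.0558 to 0.0815), 7 without tail-suspension 1 (0.0537 to 0.0885), 4 without tail-suspension 2 (0.0572 to 0.0835) and 5 without tail-suspension 3 (0.0561 to 0.110). Each of the 15 genes kept its direction in every alternative that gave it a value. The alternatives numbered 18 for 11 genes and 17 for Ccna2, Foxm1, Nusap1 and Prc1. Many of them could not have reversed it. With groups that do not overlap, leaving out or weighting arrays keeps the sign. A change of filter, variance model or test, or the replicate block, leaves the difference as it was. With the row of the slide in the fit, Cenpa, Rrm2, Ube2c and Kif20a remained called. Within the first row, tail-suspension 1 differed from the sham mean by 0.376 to 2.28 over the 15 genes, in a direction that the gap between the groups already fixes.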

How the data were processed

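Total RNA from 6 mouse hearts, 3 sham and 3 tail-suspended, was hybridised to 1-colour (Cy3) Agilent arrays, 1 heart per array, and groups follow the labels. The authors deposited scanner output in which Agilent Feature Extraction 10.7.1.1 gives each spot a background-subtracted intensity, and a value table for those arrays on the log2 scale, with the same quartiles on every array, whose normalization is not given in the sources used here. Those log2 values correlated with the log2 intensities at r above 0.999 on each array and were used as an alternative only.

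In R 4.3.3, intensities were put on the log2 scale and centred on the 75th percentile within an array. Outlier spots (146 to 212 per array) and control spots were dropped, and the spots of a probe were averaged. A probe was called well above background on an array where at least 50% of its spots were so marked, and was tested where this held on every array of at least 1 group. Groups were compared with limma 3.58.1 (lmFit, eBayes), with Benjamini-Hochberg adjustment over 28030 probes and a threshold of 0.05. The brightest probe stood for a gene. A bound sets the bright group's mean against, on each dim array, the higher of the lowest signal of a probe well above background and the dim probe's own signal. Any dim array of the bright group keeps its own signal, and the value is then not a firm bound. Differences with dim arrays raised to that lowest signal, and shares of summed levels, were added after the data were seen. The fit was tested on simulated data. The number of arrays, 3 a group, limits the precision. With 1 array per heart, p-values rest on a spread that joins mouse, labelling, hybridisation and place on the slide. The limma fit also draws on the spread of all tested probes.

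All 45 members and 15 calls are accounted for. Values per array are given for called members and for Mki67, Top2a, Ccnd1, Ccnd2, Ccnd3, Ccna2, Ccnb1, Cdc20, Pcna and E2f1. Of the pathway lists, up to 5 called genes a direction with the largest changes are named, and every tested CDK inhibitor. Cep55, Cenpn, Cdk1, Cdk2 and Cdk4, and the array values of Mcm4, Rrm1, Col3a1, Myc, Mycn and Cdkn1a were added after their values were seen. Members and lists were chosen with earlier results of these data known. Some genes carry older symbols on the array, and Ly6g was not matched. Some marker genes are not reported here. Probe positions are those of the array files (mm9), which do not say whether a probe lies in coding sequence or a UTR. Promoter windows are RefSeq's on GRCm38.p6, and none was at hand for Aurkb, Ccna2, Ccnd1, Ccnd2, Ccne2, Cdc25c, Foxm1, Gmnn, Kif20a, Mcm4 and Tpx2. Alternatives changed the background correction, normalization, source of values, filter, variance model, array weights, test, replicate block, slide row, probe rule and arrays used.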

Additional observations from a re-analysis of the deposited data

How the results depend on the processing

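The 15 called members kept their direction under each of the 18 alternatives that gave them a value (17 for Ccna2, Foxm1, Nusap1 and Prc1, which are not well above background on all 6 arrays). For many alternatives the gap between the groups, or an unchanged difference, fixed that direction in advance. Cenpa, Rrm2 and Ube2c kept their call under all 18. Counts of lower members (14) moved to 6 with no filter on dim probes, 5 with the methods' t-test, 4 with the slide row as a covariate, and 6 to 12 with 1 array left out. The count of higher members (1) became 2 with normexp or with trend and robust, 3 with array weights, 0 with no filter or the row, and 0 to 2 with 1 array left out. Without the filter 6 of 45 members were lower against 1.45% of 55681 probes. Other cell cycle genes higher (11) and lower (20) became 4 and 7 with no filter, 1 and 1 with the row, and 4 to 8 and 6 to 14 with 1 array left out, 18 were higher with array weights, and 8 were lower with the t-test. Probes higher (2984) and lower (2691) became 1038 and 805 with no filter, 1456 and 1203 with the t-test, 324 and 177 with the row, and 964 to 2922 and 737 to 2547 with 1 array left out, and 4377 were lower with array weights. The row covariate and a left-out array leave fewer arrays to separate the groups, and no filter adds dim probes to the adjustment; other causes were not tested.

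Over the tested probes, same-numbered arrays showed little common deviation from their group means (r = -0.020, -0.018 and 0.050). A correlation over so many probes cannot exclude pairs that affect few genes, and the labels name no pairs. With the replicate number as a block, 14 of 15 members remained called (Ccnd2 did not), Mki67 was called (-0.83, adjusted p = 0.0230), 7 other cell cycle genes were higher and 13 lower, and 1725 probes were higher and 1432 lower.

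Normexp with its offset shrinks dim genes: Prc1 fell by 1.05 and Ccna2 by 0.78 on the log2 scale. Uncalled members near 0 changed sign. Ccnd3 became 0.046 with normexp, 0.017 with quantiles, 0.0058 with the percentile of detected probes, 0.0041 in the series matrix values, 0.019 with array weights, 0.013 with the row and 0.025 with the mean of probes. Normexp gave -0.0026 for Cdt1, 0.0088 for Pcna and -0.11 for Tyms. Array weights gave 0.25 for Cenpf, -0.0016 for Gmnn, 0.075 for Plk1 and 0.041 for Tk1. The row gave 0.41 for Cenpf and 0.0040 for Mcm6, detected probes 0.0059 for Cenpf and the mean of probes -0.20 for Mad2l1. With 1 array left out, the ranges were -0.084 to 0.085 for Ccnd3, -0.14 to 0.23 for Cdt1, -0.21 to 0.26 for Cenpf, -0.15 to 0.15 for Gmnn, -0.065 to 0.12 for Mad2l1, -0.19 to 0.017 for Mcm6, -0.29 to 0.20 for Plk1 and -0.20 to 0.13 for Tk1.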
